A study of Mus musculus with 32 samples.

Results

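The comparison asked what contextual fear conditioning (CFC) changed in the hippocampus of mice that had all been given CI-994, which blocks the class I histone deacetylases and is labelled HDACi. It rests on 8 of the 32 libraries of the series, chosen by their labels: 4 of the HDACi CFC group and 4 of the HDACi context group. HDACi CFC mice received CI-994 at 30 mg/kg by intraperitoneal injection, were placed in a conditioning chamber 1 hour later and received 2 foot shocks of 0.2 mA there. HDACi context mice received the same injection and were kept in the chamber equally long with no shock. The Veh CFC and Veh context groups, used beside them, received the solvent in place of the drug. All were C57BL/6J males aged 12 weeks, each library holds polyadenylated RNA of a hippocampal hemisphere of 1 mouse taken 1 hour after behaviour, and n = 4 mice per group. Mice of a cage shared their behaviour, so cage and conditioning cannot be told apart. A whole hemisphere mixes all cell types of the hippocampus with whatever the dissection carried along, so fewer cells of a type and less RNA per cell cannot be told apart.

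Contextual fear conditioning pairs a place with a shock, and the hippocampus is needed to form the memory of the place. Neurons that fire strongly transcribe immediate early genes within minutes, among them the transcription factors Fos, Egr1 and Npas4 and the synaptic regulator Arc, through factors such as CREB and SRF that are present before the signal. Their products then act on later effector genes such as Bdnf. Class I histone deacetylases remove acetyl groups from histones, and their inhibitors have been studied as enhancers of such memories.

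The 8 libraries held 26026024 to 34536217 counts. Levels below are CPM (counts per library, scaled to a common total), or log2 CPM after TMM scaling where so named. HDACi CFC replicates 2 and 4 stood apart from the other 6 libraries. On the first principal component, with 39.7% of the variance, they lay at 40 and 39.4, while the others lay between −30 and 2.92. They were also the closest pair of the 8 within a group (chi-square per degree of freedom 5.35, against 24.92 to 43.63 for the other pairs of HDACi CFC), though still further apart than counting noise. Both were rich in transcripts of the choroid plexus, the epithelium in the ventricles that secretes cerebrospinal fluid. The summed level of a list of 28 choroid plexus genes was 149.1, 7069, 138.2 and 6863 CPM in HDACi CFC replicates 1 to 4. In HDACi context replicates 1 to 4 it was 239.3, 194.3, 170 and 587.4 CPM. Results are therefore given with all 8 libraries and again without HDACi CFC replicates 2 and 4, which leaves 2 mice in that group.

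**Figure D1:**
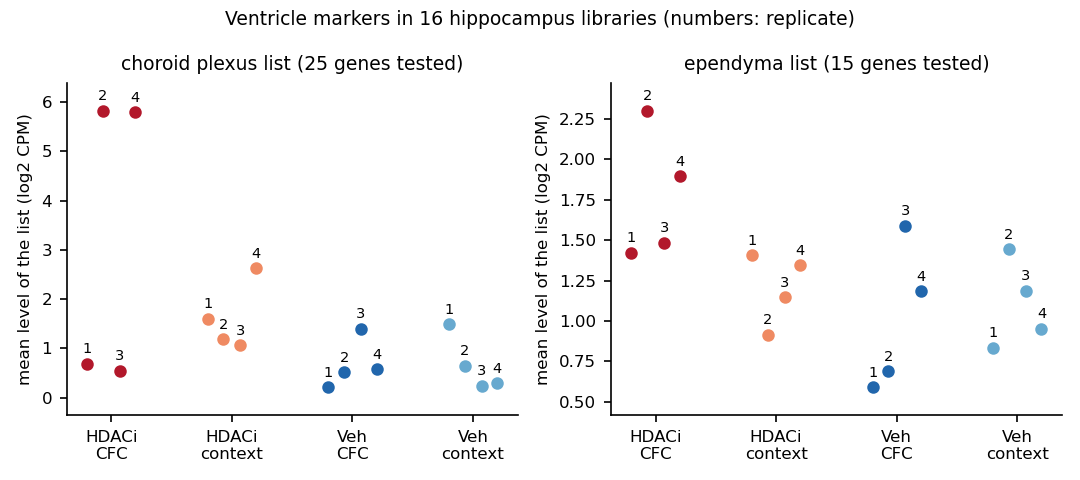
Mean level (log2 CPM, vertical axis) of the choroid plexus list and the ependyma list in each of the 16 hippocampus libraries, by group, with replicate numbers beside the points. In the choroid plexus panel HDACi CFC replicates 2 and 4 lie at 5.83 and 5.79 and every other library lies at or below 2.63, the level of HDACi context replicate 4.

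No gene was called between HDACi CFC and HDACi context in either set of libraries. With all 8 libraries, edgeR's quasi-likelihood test (two-sided, Benjamini-Hochberg adjusted p under 0.05) called 0 of 18261 genes (0%), the smallest adjusted p was 0.778, and 775 genes (4.24%) had an unadjusted p under 0.05. Of these, 564 (3.09%) were higher and 211 (1.16%) lower in HDACi CFC. Without replicates 2 and 4, 0 of 18712 genes (0%) were called, the smallest adjusted p was 1.00, and 267 genes (1.43%) had an unadjusted p under 0.05, 110 (0.588%) higher and 157 (0.839%) lower. The counts at an unadjusted p turned on single libraries: the 775 became 436 without HDACi CFC replicate 2, 413 without replicate 4 and 1264 without replicate 3, and the 267 became 413 once replicate 1 was left out as well, which leaves 1 HDACi CFC mouse, taken to vary like the other groups. DESeq2's Wald test also called 0 genes in both sets, with 685 and 167 genes at an unadjusted p under 0.05. The same edgeR fit called 3612 genes (19.8%) for the drug, HDACi context over Veh context, 1196 of them higher and 2416 lower.

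The fit was precise enough to bound most differences of genes over 3 log2 CPM. Among the 10295 genes over 3 log2 CPM, the median standard error of the log2 fold change was 0.0976, and 94.1% had a 95% interval wholly within a 1.5-fold change either way. Without replicates 2 and 4 the median standard error was 0.116 over 10286 such genes, and 91.4% had an interval within 1.5-fold. Some activity genes had wider intervals, such as Arc, at −0.52 to 0.95 in log2 fold change with all 8 libraries. The absence of a call does not show that a gene was unchanged, only that a difference beyond its 95% interval was not detected.

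Fos, the most used marker of recent neuronal activity, was higher in every HDACi CFC mouse than in any HDACi context mouse, but did not pass the test. Fos (ENSMUSG00000021250, mm10 chromosome 12, 85473890 to 85477273, plus strand) had 11.93, 11.92, 12.38 and 11.51 CPM in the 4 HDACi CFC mice, against 7.685, 8.569, 9.022 and 8.192 CPM in the 4 HDACi context mice. Every HDACi CFC value lay above every HDACi context value. The means were 11.94 ± 0.354 and 8.37 ± 0.568 CPM (SD, n = 4 each), a 1.40-fold difference (log2 fold change 0.49, SE 0.24, 95% interval −0.02 to 1.00, adjusted p = 1.00 by edgeR's quasi-likelihood test). Without HDACi CFC replicates 2 and 4 the log2 fold change of Fos was 0.53 (95% interval −0.14 to 1.21), and within replicates 1 and 2 alone or 3 and 4 alone it was 0.55 and 0.43.

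The Fos difference was not set apart from vehicle mice by a test. Fos had 17.93, 12.25, 11.8 and 7.608 CPM in Veh CFC mice, against 17.16, 9.37, 7.926 and 7.477 CPM in Veh context mice. These groups overlapped, and replicate 1 was the highest in both. The log2 fold change of conditioning was 0.24 under vehicle (SE 0.24, 95% interval −0.27 to 0.74), and the difference of the HDACi and Veh effects was 0.25 (95% interval −0.47 to 0.97, adjusted p over 0.05 in edgeR). The SD of Fos was 0.354 CPM in HDACi CFC and 0.568 CPM in HDACi context, against 4.24 CPM in Veh CFC and 4.53 CPM in Veh context (n = 4 each). The fit gave the 4 groups a common estimate of the spread. The SE, interval and p of Fos between the HDACi groups therefore rest on the more variable Veh mice as well, and not on the HDACi mice alone.

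Of the other immediate early genes, Sik1 and Egr4 also did not overlap between the groups, and none passed the test. Of the 32 genes on the list 31 passed the filter on low counts, and Fosl1 did not, at 0.139 CPM or less in all 8 libraries. Of the 31, 0 were called and 0 had an unadjusted p under 0.05 in either direction, while 23 had a log2 fold change above 0. The median was 0.096, against −0.00267 over all genes tested, and 0.144 without HDACi CFC replicates 2 and 4. In 3 of the 31 (Fos, Sik1 and Egr4) all HDACi CFC libraries lay above all HDACi context libraries, and in 0 below. Over all genes tested 132 (0.723%) lay above in this way and 203 (1.11%) below. The mean level of the list overlapped: 3.897, 3.82, 3.777 and 3.755 log2 CPM in HDACi CFC, against 3.718, 3.775, 3.606 and 3.609 log2 CPM in HDACi context.

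Sik1, a CREB-induced kinase that restrains CREB-driven transcription, had 8.947, 9.487, 7.936 and 8.895 CPM in HDACi CFC, against 7.224, 6.747, 5.822 and 4.741 CPM in HDACi context (log2 fold change 0.50, SE 0.25). Egr4, a zinc finger transcription factor, had 3.533, 3.984, 3.682 and 3.503 CPM in HDACi CFC, against 2.651, 2.699, 2.894 and 3.346 CPM in HDACi context (log2 fold change 0.32, SE 0.17). The lowest HDACi CFC library lay above the highest HDACi context library for both, by a small margin for Egr4. Junb, a partner of Fos in the AP-1 dimer, had the highest log2 fold change of the list, 0.77, but with an SE of 0.46. Its 4 HDACi CFC values of 5.154, 5.537, 2.666 and 4.173 CPM overlapped the HDACi context values of 3.65, 3.036, 1.838 and 1.603 CPM.

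Arc, whose product is moved to active synapses and removes AMPA receptors, had 164.9, 171.1, 121.2 and 119.3 CPM in HDACi CFC, against 130.8, 162.7, 98.29 and 99.14 CPM in HDACi context. The groups overlapped, and replicates 1 and 2 were higher than 3 and 4 in both (log2 fold change 0.21, SE 0.35). Npas4, a neuron-specific factor that controls inhibitory synapses, had 12.07, 11.17, 10.44 and 7.676 CPM in HDACi CFC, against 8.722, 10.02, 7.898 and 7.25 CPM in HDACi context (log2 fold change 0.27, SE 0.27). Egr1, another zinc finger factor, had 142.9, 161.2, 135.4 and 121.2 CPM in HDACi CFC, against 115.7, 139, 130.7 and 117.2 CPM in HDACi context (log2 fold change 0.13, SE 0.17). The orphan nuclear receptor gene Nr4a1 had 63.3, 73.97, 52.44 and 57.51 CPM in HDACi CFC, against 52.95, 63.05, 50.35 and 47.41 CPM in HDACi context (log2 fold change 0.19, SE 0.20). For these 3 genes too the groups overlapped.

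**Figure D2:**
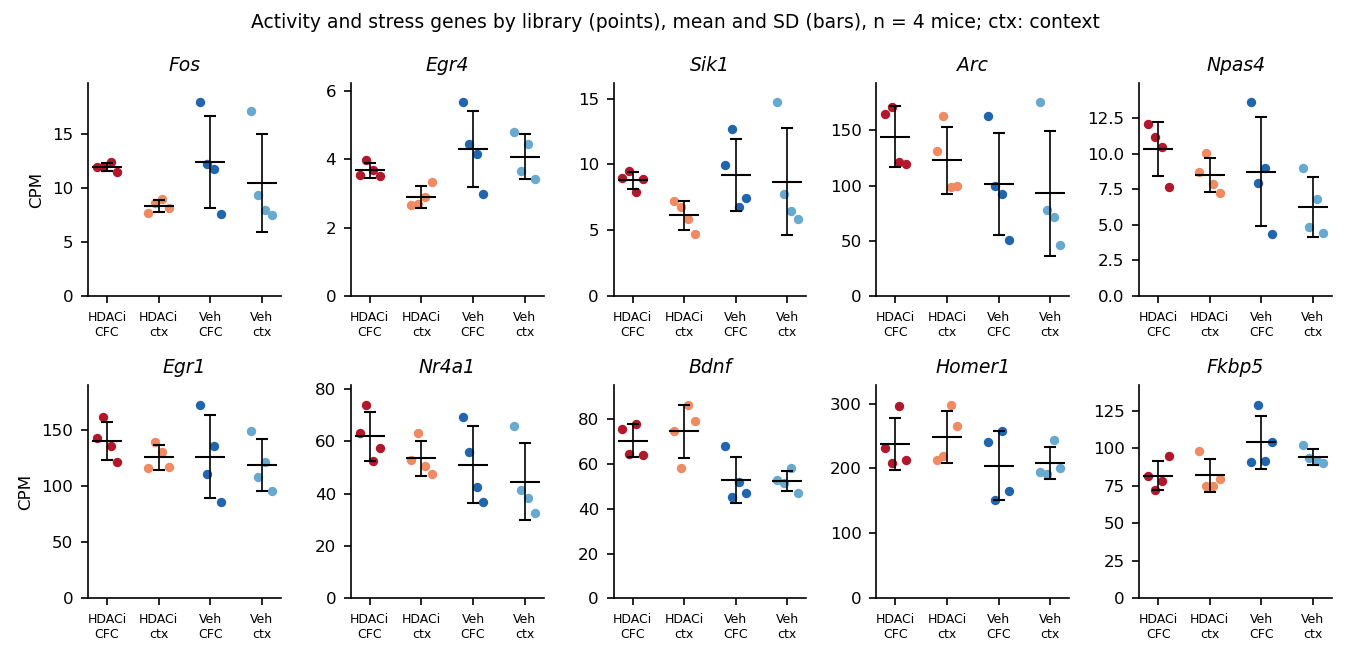
CPM (vertical axes, from 0) of 10 activity and stress genes in each hippocampus library (points) with the mean and SD of each group (black bars, n = 4 mice). Fos, Egr4 and Sik1 are the genes whose HDACi CFC points all lie above the HDACi context points, and the Veh groups spread more widely for Fos (SD bars) than the HDACi groups.

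Promoters of these genes were searched for letters that CREB is known to bind. CREB binds the cAMP response element TGACGTCA, which holds the core TGACG on both strands. The letters TGACG on either strand were found in 23 of 34 RefSeq promoters of 25 immediate early genes (67.6%), against 6837 of 32851 promoters of all genes (20.8%), in windows of 250 bases before to 50 after the start. The whole element TGACGTCA, which is counted in both sets of letters, was found in 2 of the 34 (5.88%), against 588 of all (1.79%). The 250 bases before the start (RefSeq, GRCm38.p6) are shown for Fos and Egr4, whose groups did not overlap, and for Nr4a1, whose groups did, with each core in capitals (TGACG, or CGTCA where it lies on the other strand). Fos lies at chr12:85473640-85473889 on the plus strand, Egr4 at chr6:85513590-85513839 on the minus strand and Nr4a1 at chr15:101266596-101266845 on the plus strand.
Fos: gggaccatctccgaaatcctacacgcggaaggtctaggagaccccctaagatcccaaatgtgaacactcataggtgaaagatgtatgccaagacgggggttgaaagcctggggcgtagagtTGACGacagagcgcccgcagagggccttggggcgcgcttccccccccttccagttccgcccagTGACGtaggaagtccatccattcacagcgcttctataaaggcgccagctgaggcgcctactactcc
Egr4: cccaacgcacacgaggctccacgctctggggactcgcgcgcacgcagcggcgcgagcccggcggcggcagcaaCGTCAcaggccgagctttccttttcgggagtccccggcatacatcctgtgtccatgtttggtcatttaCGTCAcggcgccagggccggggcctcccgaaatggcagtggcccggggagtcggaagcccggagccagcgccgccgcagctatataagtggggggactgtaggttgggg
Nr4a1: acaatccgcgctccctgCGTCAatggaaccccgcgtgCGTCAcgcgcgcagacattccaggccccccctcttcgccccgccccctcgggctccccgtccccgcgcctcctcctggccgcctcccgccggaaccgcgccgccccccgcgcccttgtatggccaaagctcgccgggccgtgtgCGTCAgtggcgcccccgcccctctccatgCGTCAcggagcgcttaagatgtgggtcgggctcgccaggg
Fos and Egr4 hold 2 cores each and Nr4a1 holds 4. A match of letters does not show that a factor binds there. The promoters of all genes were not matched to these in base composition, and no promoter of Sik1 was found to print.

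**Figure D3:**
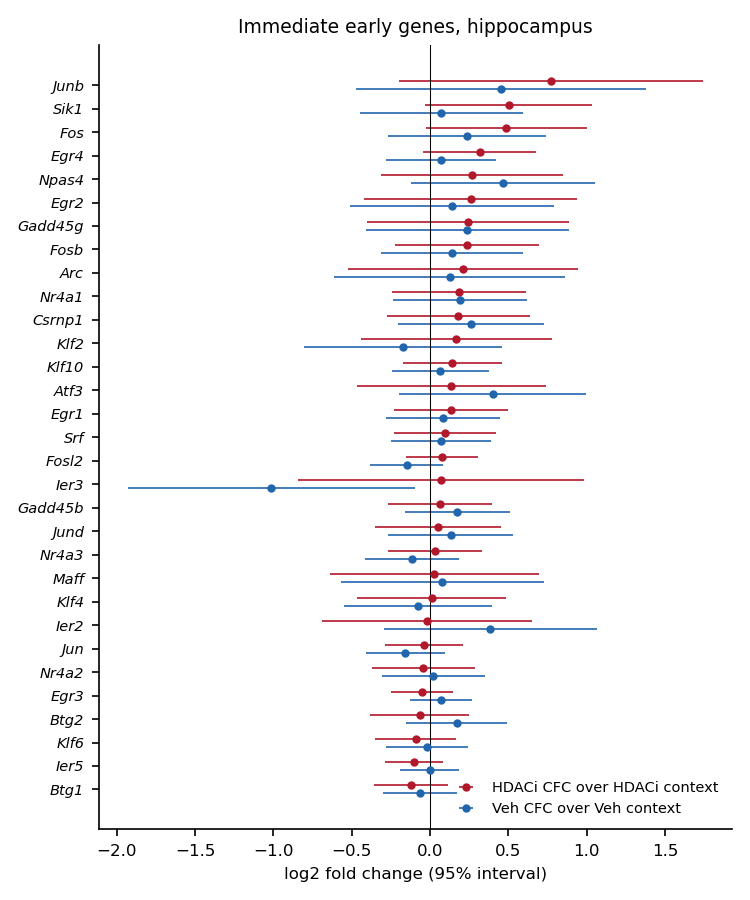
Log2 fold change of conditioning (horizontal axis, points) with its 95% interval (lines) for the 31 tested immediate early genes in hippocampus, HDACi CFC over HDACi context and Veh CFC over Veh context. All 31 intervals of the HDACi comparison reach across 0, with Fos, Sik1 and Junb at 0.49, 0.50 and 0.77.

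Genes that act after the immediate early genes also had no call. Whether they differed less than the immediate early genes was not tested. Of 30 delayed effector genes 0 were called and 0 had an unadjusted p under 0.05 in either direction. Their median log2 fold change was −0.0411, with 10 of the 30 above 0. Without the HDACi CFC libraries rich in choroid plexus transcripts the median was 0.0386, with 20 of the 30 above 0. Bdnf, the neurotrophin, had 75.69, 64.55, 77.8 and 63.88 CPM in HDACi CFC, against 74.93, 58.43, 86.24 and 79.41 CPM in HDACi context (log2 fold change −0.11, SE 0.14). Homer1, a postsynaptic scaffold with an activity-induced short form, had 230.9, 208.8, 296.1 and 213.7 CPM in HDACi CFC, against 212.8, 219.9, 298.4 and 265 CPM in HDACi context (log2 fold change −0.09, SE 0.17). Both genes overlapped between the groups. The 22 genes of MAP kinase feedback, which damp the signal from the membrane, had 0 with an unadjusted p under 0.05 and a median of −0.00335.

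A foot shock is also a stressor, and genes that respond to glucocorticoids were examined for that reason. Of 24 such genes 0 were called, 0 were higher and 1, Arrdc3, was lower with an unadjusted p under 0.05 (median −0.0561). Fkbp5, a cochaperone of the glucocorticoid receptor and a sensitive readout of it, had 81.31, 72.28, 77.86 and 95.04 CPM in HDACi CFC, against 98.13, 74.9, 74.66 and 79.75 CPM in HDACi context (log2 fold change −0.03, 95% interval −0.26 to 0.21). Sgk1, a kinase induced by corticosteroids, had 129.2, 157.5, 165.7 and 181.9 CPM in HDACi CFC, against 159, 165, 134.2 and 186.2 CPM in HDACi context (log2 fold change −0.05, 95% interval −0.33 to 0.24). Neither gene separated the groups. Of 18 heat shock genes 0 had an unadjusted p under 0.05, with a median of −0.0353 that was 0.102 without HDACi CFC replicates 2 and 4.

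The remaining pathways showed no call either. Over the 17 pathway lists the medians ran from −0.0709 for circadian clock genes to 0.096 for immediate early genes, and without HDACi CFC replicates 2 and 4 from −0.0517 to 0.144. Among 19 clock genes 3 were lower with an unadjusted p under 0.05 and 0 higher, where 1.16% of all genes tested were lower and 3.09% higher. Without HDACi CFC replicates 2 and 4, 0 of the 19 were lower and 0 higher at that level. Per3, a period gene, had 45.37, 42.88, 51.14 and 45.72 CPM in HDACi CFC, against 62.32, 59.88, 46.27 and 53.3 CPM in HDACi context (log2 fold change −0.28, SE 0.09, adjusted p = 0.841). The other 2 were the PAR bZIP factors Tef (−0.13) and Hlf (−0.21), and without HDACi CFC replicates 2 and 4 the 3 values were −0.20 for Per3, −0.08 for Tef and −0.07 for Hlf. Among 16 histone deacetylase genes, Sirt1 had an unadjusted p under 0.05 in the higher direction (log2 fold change 0.22) and Hdac8 in the lower (−0.21). Sirt1 encodes a NAD-dependent deacetylase outside class I, and its groups did not overlap: 4.922, 5.57, 5.968 and 5.574 CPM in HDACi CFC, against 4.611, 4.453, 4.732 and 4.741 CPM in HDACi context. Glutamate receptor and scaffold genes (45 tested), synaptic vesicle genes (42) and voltage-gated channels (40) had medians of −0.0159, −0.0493 and −0.0546, with 1, 2 and 1 genes lower and 0 higher at an unadjusted p under 0.05.

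**Figure D4:**
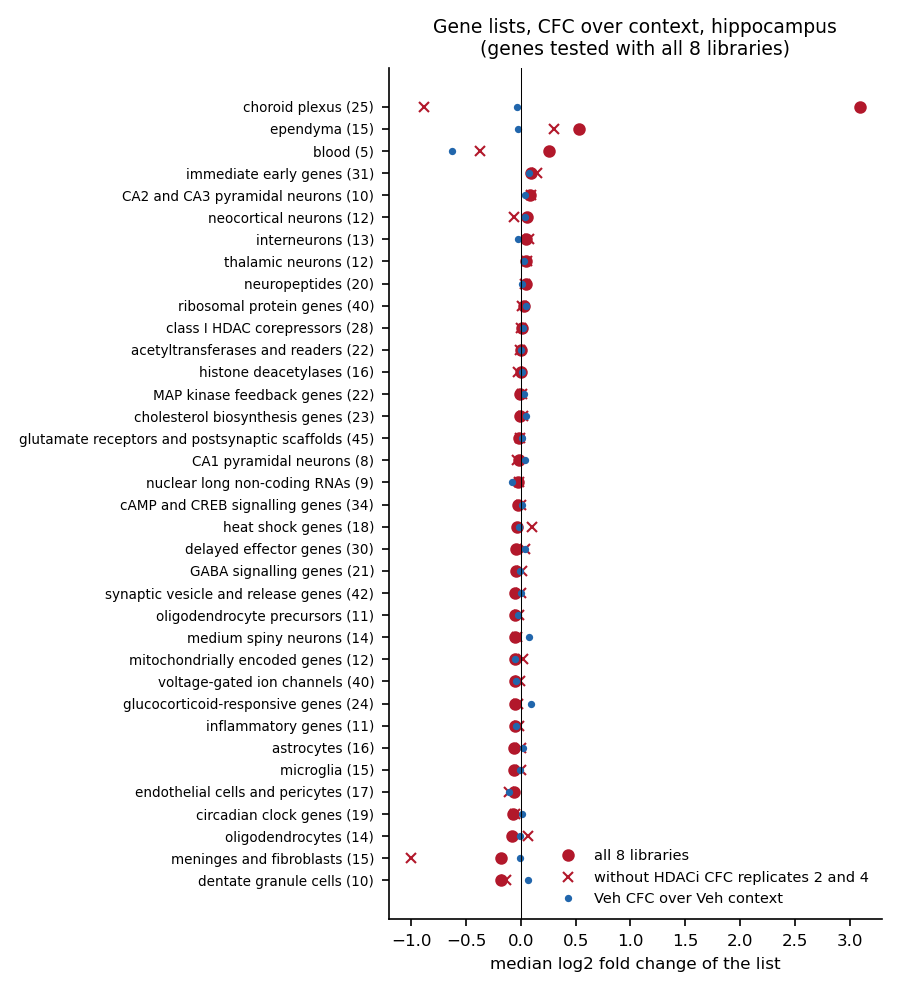
Median log2 fold change (horizontal axis) of each of the 36 gene lists for HDACi CFC over HDACi context with all 8 libraries (red circles) and without HDACi CFC replicates 2 and 4 (red crosses), and for Veh CFC over Veh context (blue dots), with the number of genes tested in brackets. The choroid plexus list lies at 3.09 with all libraries and at −0.881 without the pair, and the pathway lists lie between −0.0709 and 0.144 in both.

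Choroid plexus genes carried the largest differences of the comparison, and their direction turned without HDACi CFC replicates 2 and 4. Since these libraries were singled out by the same genes, the values are a description. Of 28 genes on the list 25 passed the filter, and the other 3 (Wfdc2, Steap1 and Lmx1a) were high in the same 2 libraries at 4.524 to 8.946 CPM. Of the 25, 24 were higher and 0 lower at an unadjusted p under 0.05 with all 8 libraries (3.09% and 1.16% of all genes tested). Of these 25, 0 were called, and the median log2 fold change was 3.09. Without the pair, 0 were higher and 11 lower (0.588% and 0.839% of all genes tested), and the median was −0.881. Under vehicle, where 0.548% of all genes were higher and 0.482% lower at an unadjusted p under 0.05, the median was −0.0312 with 0 genes in either direction.

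Ttr, which encodes the thyroxine carrier transthyretin and marks choroid plexus epithelium, shows the pattern. Ttr (ENSMUSG00000061808) had 10.89, 5433, 5.047 and 5237 CPM in HDACi CFC, against 59.82, 49.26, 24.85 and 355.4 CPM in HDACi context. HDACi CFC thus held both the 2 highest and the 2 lowest of the 8 libraries. The log2 fold change was 4.41 (SE 1.66) with all 8 libraries, −3.92 (SE 1.51) without the pair, and −1.62 with the level of the choroid plexus list as a covariate. Veh CFC mice had 7.176, 9.102, 38.3 and 15.38 CPM of Ttr, against 98.11, 13.41, 3.867 and 3.444 CPM in Veh context mice. Ttr therefore varied many-fold between mice of every hippocampal group, and HDACi context replicate 4 was high among the context mice.

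Other genes of the epithelium followed the same libraries. Kl, the coreceptor klotho, had 21.25, 252.4, 22.06 and 253 CPM in HDACi CFC, against 28.97, 25.2, 28.22 and 40.82 CPM in HDACi context (log2 fold change 2.12, and −0.51 without the pair). F5, coagulation factor V, had 1.042, 146.8, 0.7936 and 149.3 CPM in HDACi CFC, against 3.535, 2.125, 1.634 and 9.237 CPM in HDACi context (4.13, and −2.16 without the pair). Aqp1, the water channel of the apical membrane, had 0.4054, 57.49, 0.127 and 50.72 CPM in HDACi CFC, against 0.8069, 0.9784, 0.4085 and 2.963 CPM in HDACi context (4.36, and −2.23 without the pair). Replicates 1 and 3 of HDACi CFC lay below all 4 context libraries for these 3 genes. Slc29a4, a monoamine transporter that neurons also express, was the gene of the 25 without an unadjusted p under 0.05 (log2 fold change 0.43).

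Ependyma genes differed less, and their median stayed above 0 without the pair. The 15 genes of this list, which mark the ciliated cells that line the ventricles, had a mean level of 1.422, 2.3, 1.483 and 1.896 log2 CPM in HDACi CFC, against 1.406, 0.9159, 1.146 and 1.346 log2 CPM in HDACi context. All HDACi CFC libraries lay above all HDACi context libraries, though the lowest HDACi CFC value, 1.422, was close to the highest HDACi context value, 1.406. Of the 15, 6 were higher and 0 lower at an unadjusted p under 0.05 (3.09% and 1.16% of all genes tested). All 15 had a log2 fold change above 0, and the median was 0.534. Without HDACi CFC replicates 2 and 4 14 of the 15 were above 0 (the lowest at −0.165), the median was 0.303 and 0 genes had an unadjusted p under 0.05 in either direction. Under vehicle the median was −0.0279. In striatum, HDACi CFC over HDACi context gave a median of 0.56, with all 15 above 0 and 2 higher and 0 lower at an unadjusted p under 0.05 (2.64% and 2.77% of all genes there). The difference of the effects, hippocampus minus striatum, had a median of 0.114 over the list, with 9 of the 15 above 0 and 0 genes called. Without hippocampus HDACi CFC replicates 2 and 4 the median of that difference was −0.248, with 0 of the 15 above 0 and 0 called. Foxj1, the master regulator of motile cilia, had 7.094, 11.17, 4.857 and 8.925 CPM in HDACi CFC, against 6.34, 5.297, 3.098 and 4.427 CPM in HDACi context. The part of dissection in these values was not tested.

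Markers of neurons and glia moved little. Of 10 dentate granule cell genes 3 were lower at an unadjusted p under 0.05 and 0 higher, where 1.16% of all genes tested were lower and 3.09% higher. The median of the list was −0.183, and −0.14 without the pair, where 0 of the 10 were lower and 0 higher at an unadjusted p under 0.05. The 3 lower genes with all 8 libraries were Prox1, the factor that defines granule cells (log2 fold change −0.21), Stxbp6 (−0.23) and Il1rap (−0.22). Prox1 had 263.2, 232, 213.6 and 248.8 CPM in HDACi CFC, against 293.1, 238.4, 292.3 and 264.2 CPM in HDACi context, and the groups overlapped. The lists of CA1 neurons, of CA2 and CA3 neurons and of interneurons had medians of −0.0198, 0.0792 and 0.0507, and astrocytes, oligodendrocytes and microglia −0.0581, −0.0771 and −0.0625. Meninges genes had a median of −0.179, and −1.0 without the pair. Their summed level was 233.8, 406, 207.1 and 749.2 CPM in HDACi CFC, against 607.5, 275.4, 199.6 and 403.9 CPM in HDACi context. The summed level of 40 ribosomal protein genes was 5093 to 5724 CPM in HDACi CFC, against 4708 to 5843 CPM in HDACi context, and their median log2 fold change was 0.0291.

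The 2 libraries were also high for genes outside the choroid plexus list. Of the 564 genes higher at an unadjusted p under 0.05 with all 8 libraries, 463 (82.1%) had HDACi CFC replicates 2 and 4 above all 6 other libraries. Over all genes tested 1641 (8.99%) had this pattern. The 564 were picked for being higher in a group that holds this pair, so the share is a description. Without the pair, 40 of the 564 were still higher at an unadjusted p under 0.05 and 194 had a log2 fold change below 0. Of the 189 genes with a log2 fold change over 1, 6 stayed over 1 and 109 were below 0 without the pair. Of the 211 genes lower with all 8 libraries, 48 were also lower at an unadjusted p under 0.05 without it.

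**Figure D5:**
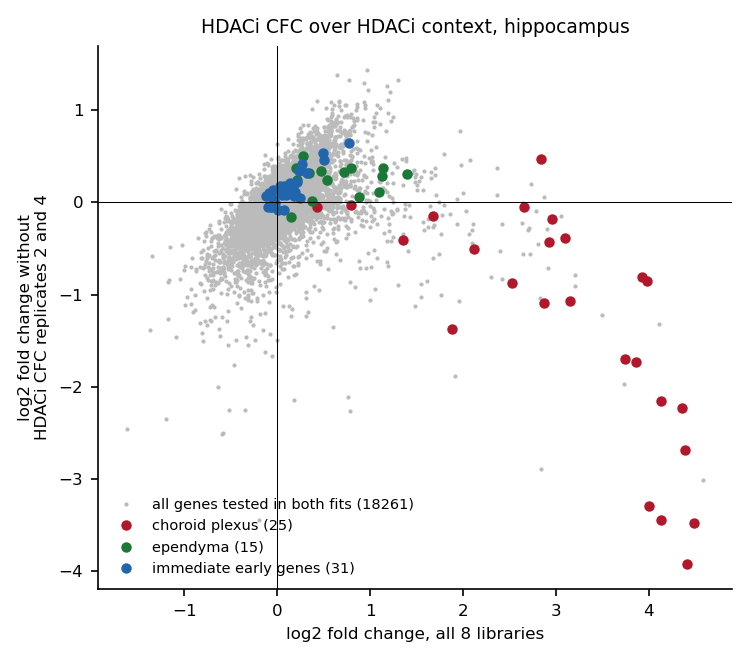
Log2 fold change of HDACi CFC over HDACi context with all 8 libraries (horizontal axis) against that without HDACi CFC replicates 2 and 4 (vertical axis), a point per gene, with 18261 genes tested in both and 3 lists coloured. The 2 axes share 6 libraries. Choroid plexus genes run to the lower right, with Ttr at 4.41 and −3.92, ependyma genes lie to the right and immediate early genes lie near the origin.

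The genes with the smallest p in each direction are named for their values, since none was called. They were picked among genes at 1 log2 CPM or more whose symbol is no clone name. With all 8 libraries the 8 picked as higher in HDACi CFC were Col9a3, Sulf1, Prlr, Slc2a12, Cldn2, Epn3, Drc7 and Sostdc1. Their log2 fold changes were 2.37, 2.90, 3.09, 2.71, 3.92, 2.87, 2.63 and 2.65. Prlr, Cldn2 and Sostdc1 are on the choroid plexus list, and Sulf1 is on the list of neocortical neurons. Prlr, the prolactin receptor, had 6.66, 136.5, 5.841 and 137.1 CPM in HDACi CFC, against 6.148, 5.128, 8.137 and 13.18 CPM in HDACi context. In all 8 genes HDACi CFC replicates 2 and 4 stood above the other 6 libraries, and without the pair their log2 fold changes lay between −0.81 and 0.08.

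The 8 genes lower in HDACi CFC with the smallest p were also lower without that pair. They were Zfp772, Ipcef1, Setbp1, Cxcl12, Per3, Igfbp5, Hmgb2 and Stxbp6. Their log2 fold changes lay between −0.43 and −0.18 with all 8 libraries and between −0.57 and −0.14 without the pair. Ipcef1, Per3 and Stxbp6 then had an unadjusted p over 0.05 by edgeR's quasi-likelihood test. These genes were picked by their p with all 8 libraries, and the fit without the pair reuses the remaining libraries. Their kept direction is therefore a description and no independent check. Setbp1, a chromatin-bound protein that binds the oncoprotein SET, had 68.62, 65.16, 67.87 and 67.59 CPM in HDACi CFC, against 74.35, 73.88, 72.89 and 78.88 CPM in HDACi context (log2 fold change −0.18, SE 0.05, adjusted p = 0.778). Cxcl12, a chemokine that guides migrating cells, had 38.16, 39.67, 34.63 and 42.4 CPM in HDACi CFC, against 45.76, 44.97, 40.55 and 45.73 CPM in HDACi context (log2 fold change −0.22, and −0.28 without the pair). On the TMM-scaled log2 CPM used to judge overlap, neither gene overlapped between the groups, while on the CPM printed here Cxcl12 did. Zfp772 (8.676 to 10.03 CPM in HDACi CFC, against 10.86 to 12.63 CPM in HDACi context) has close relatives in its zinc finger family, so its count is uncertain.

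Without HDACi CFC replicates 2 and 4 the genes higher with the smallest p were Dpysl2, Mid1, Slc18a2, Dlx6, Acot3, Pcbd2, Pcp4 and Cdca4. Dpysl2, a tubulin-binding protein of axon growth, had 166.3, 141.4, 176.8 and 145.9 CPM in HDACi CFC, against 127.6, 150.6, 132.5 and 133.2 CPM in HDACi context (log2 fold change 0.19 with all libraries, 0.33 without the pair). Mid1 was high in HDACi CFC replicate 1, with 50.3, 6.921, 11.84 and 6.884 CPM in HDACi CFC, against 16.87, 10.86, 11.85 and 8.68 CPM in HDACi context. The striatum libraries had a like order by replicate number, with 50.38, 6.977, 16.62 and 7.434 CPM in HDACi CFC, against 18.75, 15.23, 14.34 and 8.976 CPM in HDACi context. The labels do not say whether libraries of the same number in both regions came from 1 mouse. The lower genes of that comparison were Kl, Abca4, Pcgf1, Slc22a5, F5, Mxra8, Cxcl12 and Hmgb2, of which Kl, Abca4 and F5 are on the choroid plexus list. Cort, which encodes the neuropeptide cortistatin and was chosen after its values were seen, had the smallest p of its list in both sets. It had 2.114, 1.519, 2.063 and 1.767 CPM in HDACi CFC, against 1.153, 1.147, 1.6 and 1.081 CPM in HDACi context (log2 fold change 0.56, and 0.74 without the pair, adjusted p over 0.05 in both). Its groups overlapped slightly, at a level of about 1 to 2 CPM.

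The conditioning effect under the drug was then set beside that under vehicle and that in the striatum, with the same injections and behaviour. Veh CFC over Veh context in hippocampus called 0 of 18261 genes (0%) in edgeR, with 188 (1.03%) at an unadjusted p under 0.05, and 1 gene in DESeq2's Wald test, 5830444B04Rik. The 188 became 294 without Veh context replicate 1 and 400 without Veh CFC replicate 3. The test of the difference between the HDACi and the Veh effect called 0 genes (0%), with 390 (2.14%) at an unadjusted p under 0.05, and 0 of 18712 (0%) with 238 (1.27%) without the pair. The 390 became 651 without HDACi CFC replicate 1, 257 without replicate 2 and 698 without replicate 3. DESeq2's Wald test called 1 gene for that difference, the same 5830444B04Rik. No gene was thus called as responding to conditioning differently under CI-994 in edgeR, and the median standard error of that difference was 0.192.

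In the striatum, HDACi CFC over HDACi context called 0 of 18256 genes (0%), with 988 (5.41%) at an unadjusted p under 0.05. The 988 became 1589 without striatum HDACi CFC replicate 1, 383 without replicate 2, 1793 without replicate 3 and 552 without striatum HDACi context replicate 3. DESeq2's Wald test called 2 genes there, Gm26645 and Gm6556. The immediate early gene list had a median log2 fold change of 0.416 in striatum, with 6 genes higher and 0 lower at an unadjusted p under 0.05 (2.64% and 2.77% of all genes there), against a median of 0.096 in hippocampus. Fos had 10.73, 17.58, 13.82 and 11.09 CPM in striatum HDACi CFC, against 4.258, 5.319, 5.366 and 5.441 CPM in striatum HDACi context, with no overlap (log2 fold change 1.33, SE 0.50). The test of the difference, hippocampus minus striatum, gave −0.83 for Fos (95% interval −2.03 to 0.37) and called 0 of 19198 genes (0%), with 752 (3.92%) at an unadjusted p under 0.05 (1131 without striatum HDACi CFC replicate 1). This fit treated the libraries of the regions as separate mice. Striatum HDACi CFC replicates 2 and 4 held 8.352 and 7.049 CPM of Bdnf, which medium spiny neurons hardly transcribe, against 0.4207 and 0.07197 CPM in replicates 1 and 3, and Fos was above the context values in both pairs. Without hippocampus HDACi CFC replicates 2 and 4 the region test called 0 of 19691 (0%), with 429 (2.18%), and gave −0.81 for Fos. The choroid plexus list had a summed level of 147.1 to 180 CPM in striatum HDACi CFC, against 184.4 to 193.4 CPM in striatum HDACi context.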

How the data were processed

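RNA was measured in mouse hippocampus and striatum. The deposited table holds raw read counts per gene made by the authors from stranded libraries of polyadenylated RNA, per the labels' protocols. Per the submitters' processing notes the tools were STAR 2.6, DESeq2 and bcl2fastq 2.20.0 and the build mm10. Neither the counter, its strand setting nor its annotation is given in the sources used here, so genes that overlap others are uncertain. Of 54146 gene identifiers 54079 had a symbol in GENCODE M21, and the other 67 held at most 0.0264% of a library.

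The 16 hippocampus libraries were fitted together in edgeR 4.0.16 (R 4.3.3) with 4 group means, TMM scaling, filterByExpr and the two-sided quasi-likelihood test, p adjusted by Benjamini-Hochberg over all genes, threshold 0.05. The striatum was fitted likewise, and all 32 libraries for the region difference. CPM is relative to the library total, and log2 CPM is TMM-scaled with a prior count of 2. Overlap between groups was judged on the log2 CPM scale. DESeq2 1.42.0 was an alternative, with the others given in the closing section. The fits were tested on simulated data.

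Genes and lists were chosen with earlier results of these data known. Named are 10 panel genes (Ttr, Fkbp5, Sgk1, Bdnf, Homer1, Arc, Fos, Egr1, Npas4 and Nr4a1), the called genes of each list and fit (none), and, as fewer than 8 were called in each direction, the 8 with the smallest p at 1 log2 CPM or more with a symbol that is no clone name. Others named are members of the 36 lists. Of the list entries, 1 had no match.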

Additional observations from a re-analysis of the deposited data

Results flagged for a closer look

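Within each group of 4 libraries, a value was marked when its gap to the nearest other took up more of the group's range than Dixon's 95% critical value for 4 values allows. Of 152 groups of values tested, over named genes and gene lists, 8 were marked, and chance marks about 1 in 20. In HDACi CFC, replicate 1 stood apart for Mid1 at 50.3 CPM, where the other 3 libraries had 6.921, 11.84 and 6.884 CPM. The same library was the highest for the synaptic vesicle list at 7.538 log2 CPM, with the others at 7.423, 7.415 and 7.4, and the lowest for nuclear long non-coding RNAs at 8.35 log2 CPM, with the others at 8.461, 8.471 and 8.463. In HDACi context, replicate 4 stood apart for Ttr at 355.4 CPM and for Cldn2, a tight junction gene of the choroid plexus, at 4.322 CPM. Replicate 3 was the lowest for Cxcl12 at 40.55 CPM and for the endothelial and pericyte list at 4.215 log2 CPM, and replicate 2 the highest for the interneuron list at 5.512 log2 CPM. HDACi CFC replicates 2 and 4 were not marked for choroid plexus genes, since 2 high values of 4 leave no gap to the nearest other.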

How the results depend on the processing

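HDACi CFC over HDACi context in hippocampus called 0 genes in all 34 alternatives run over both sets of libraries: other scalings, DESeq2's Wald test, no filter on low counts, only the 2 groups compared, a batch term or only replicates 1 and 2 or 3 and 4, the choroid plexus level as a covariate, a replicate block and leaving out each library. The smallest adjusted p was 0.0687, in DESeq2's Wald test. With all 8 libraries as the start, the count at an unadjusted p under 0.05 ran from 413 to 1264 when a library was left out. It was 318 with the choroid plexus covariate and 1301 of 34128 genes without the filter. Deviations of same-numbered libraries of the 2 groups correlated at 0.115, 0.026, 0.446 and 0.177 for numbers 1 to 4. Other numbers were not compared here, so whether replicate numbers mark shared handling was not tested. The replicate block called 0 genes, with 1344 at an unadjusted p under 0.05 and 553 without HDACi CFC replicates 2 and 4.

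DESeq2's Wald test called 1 gene for Veh CFC over Veh context, 1 for the HDACi minus Veh difference and 2 for the striatum, where edgeR called 0. Leaving out a library gave 0 to 1 calls for that difference (5830444B04Rik without Veh context replicate 3), 0 to 1 for the striatum (Gm6556 without HDACi CFC replicate 1) and 0 to 5 for the region difference. The 5, without hippocampus HDACi CFC replicate 1, were Ace, Col17a1, Gm40663, Pon3 and Serpinb1b, and without striatum HDACi CFC replicate 1 the call was Me2. The cause was not tested. Libraries of the same group and number in both regions deviated together (correlations 0.0785 to 0.43, over 0.1 in 15 of 16 pairs, the same number the highest in 13), a hint from the data of shared mice. With a block for such mice, an alternative chosen after seeing the data, the region difference called 0 genes, with 1021 at an unadjusted p under 0.05, and Fos was at −0.81 (95% interval −1.48 to −0.14, adjusted p = 0.883 by edgeR). Of 1360 values of named genes under alternatives, 52 moved by over 1 SD, 71 had the opposite sign and 0 passed the threshold.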

Other observations

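Genes of other lists shared the pattern of HDACi CFC replicates 2 and 4, and were chosen after their values were seen. Igf2, a growth factor of meninges and choroid plexus, had 0.2896, 4.423, 0.5396 and 4.874 CPM in HDACi CFC, against 1.268, 0.6747, 0.5447 and 0.9063 CPM in HDACi context. Ppp1r1b, which encodes the dopamine-regulated phosphatase inhibitor DARPP-32, had 29.27, 60.63, 30.41 and 66.25 CPM in HDACi CFC, against 33.01, 33.97, 28.94 and 37.02 CPM in HDACi context, while the summed level of the medium spiny neuron list was 553.8 to 635.4 CPM in HDACi CFC, against 588.6 to 618.1 CPM in HDACi context. Neat1, a nuclear long non-coding RNA, had 112.3, 212.6, 107.6 and 224.8 CPM in HDACi CFC, against 140.2, 142.1, 112.1 and 135.1 CPM in HDACi context. For all 3 genes the 2 libraries lay above the other 6, and the log2 fold change without them was −1.03, −0.16 and −0.27.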
